A study of Glycine max with 102 samples.

Results

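Among 56044 soybean gene IDs, 81 switched on and off between parents of the soyNAM population without meeting the same rule among milestone cultivars. A gene counted as on in a library at 5 FPKM or more (fragments mapped to a gene, scaled by transcript length and by library size) and as off below 0.1 FPKM, and everything else counted as between. A member was on in at least 5 and off in at least 5 of the 41 soyNAM libraries, but did not reach both counts in the 61 milestone libraries. The rule was met by 229 genes in soyNAM (0.409% of all IDs) and by 410 in the milestone cultivars (0.732%). Of these, 148 met it in both collections, so the 81 members made up 35.4% of the genes switching in soyNAM. Members were chosen by their FPKM values in both collections, so the counts of on and off lines below describe that choice and are no test.

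Gene activity that is present in some accessions of a crop and absent in others is a familiar form of diversity in plants. It is known to arise from deleted or truncated gene copies, from sequence differences in promoters, and from genes that respond to the time of day or to stress and are silent otherwise. A value near 0 in an FPKM table does not tell these apart. The IDs carry no gene names in the sources used here (0 of 56044 matched the table of names), so members are given by ID and no role is assigned to them.

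Each accession gave 1 library, made from V2 leaves of 18-day-old plants. The soyNAM population is a nested association mapping design in which many founder parents were crossed to a common hub. Its 41 libraries were divided into 8 PI lines (plant introductions), 15 LG lines (bred from diverse ancestors) and 18 elite lines (cultivars and advanced breeding material). The class of a line was read from its family number, with 40 to 64 as PI, 24 to 39 as LG, and 2 to 23 together with the column named Parent as elite; this key is public knowledge and is absent from the labels. The 61 milestone cultivars mark steps in the breeding history of soybean. The spread within a class is therefore the spread between accessions and includes that of single plants and libraries. No label gives a batch, so collection and batch cannot be told apart.

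Of 5 leaf markers, 4 had medians of at least 1023 FPKM in soyNAM and 1272 FPKM in milestone libraries, among them the rubisco small subunit gene Glyma.13G046200 with 16832 FPKM in soyNAM and 20040 FPKM in milestone libraries. The other small subunit gene, Glyma.19G046800, had a median of 0 FPKM in both. Seed storage genes stayed at or below 0.853 FPKM and nodule leghemoglobin genes at or below 2.68 FPKM in all 102 libraries. The 5 soyNAM libraries Parent, NAM06, NAM10, NAM11 and NAM31 stood apart from the rest. Their median rank correlation with the other libraries was 0.862 to 0.895, against 0.910 to 0.926 in the other 36 soyNAM libraries. The summed level of 5 leaf markers ran from 4417 to 16210 FPKM in these 5 (median 9920), against 13267 to 40516 FPKM in the other 36 (median 31393); in bulk leaf RNA, fewer cells of a type and less RNA per cell cannot be told apart. LHY2b, a copy of the clock gene LHY, which peaks around dawn in Arabidopsis, ran from 0.196 to 49.7 FPKM in the 5, against 46.1 to 326 FPKM in the other 36, with NAM48 (46.1) and NAM29 (53.97) at the low end of those. The 5 were not alike in clock genes. In NAM10 and Parent LHY2b was 0.239 and 0.196 FPKM, and the clock gene J was 53.6 and 47.5 FPKM. In NAM06, NAM11 and NAM31 LHY2b was 36.4 to 49.7 FPKM and J 2.71 to 4.29 FPKM. J ran from 3.21 to 7.05 FPKM in the other 36. The clock gene E2 was 94.7 and 94.5 FPKM in NAM10 and Parent, against 16.7 to 69.5 FPKM in the other 36. Of the 5 libraries, 4 are elite, 1 is LG and 0 are PI, so class shares, counts and tests below are followed by their values without them.

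Across the 81 members and 41 soyNAM lines there were 3321 values, of which 765 were on, 1165 off and 1391 between. Of the off values, 812 (69.7%) were listed at 0. A listed 0 can also be a failed estimate, which was not tested. Of 803 genes with a median of 100 FPKM or more over the 102 libraries, 4 had any value of 0. The leaf marker Glyma.13G046200, with a milestone median of 20040 FPKM, had a lowest milestone value listed at 0. Members are mostly far lower, with a median on level of 8.83 FPKM at the middle member, so this count does not carry over to them. A member was on in 5 to 35 lines (median 7) and off in 5 to 34 lines (median 13), and 0 to 31 lines (median 18) lay between. For 30 members most of the 41 lines lay between the limits, so these are not on or off in most lines. The highest soyNAM value of a member ran from 6.29 to 1142 FPKM (median 16.9). It reached 100 FPKM in 10 members and stayed under 10 FPKM in 24.

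**Figure D1:**
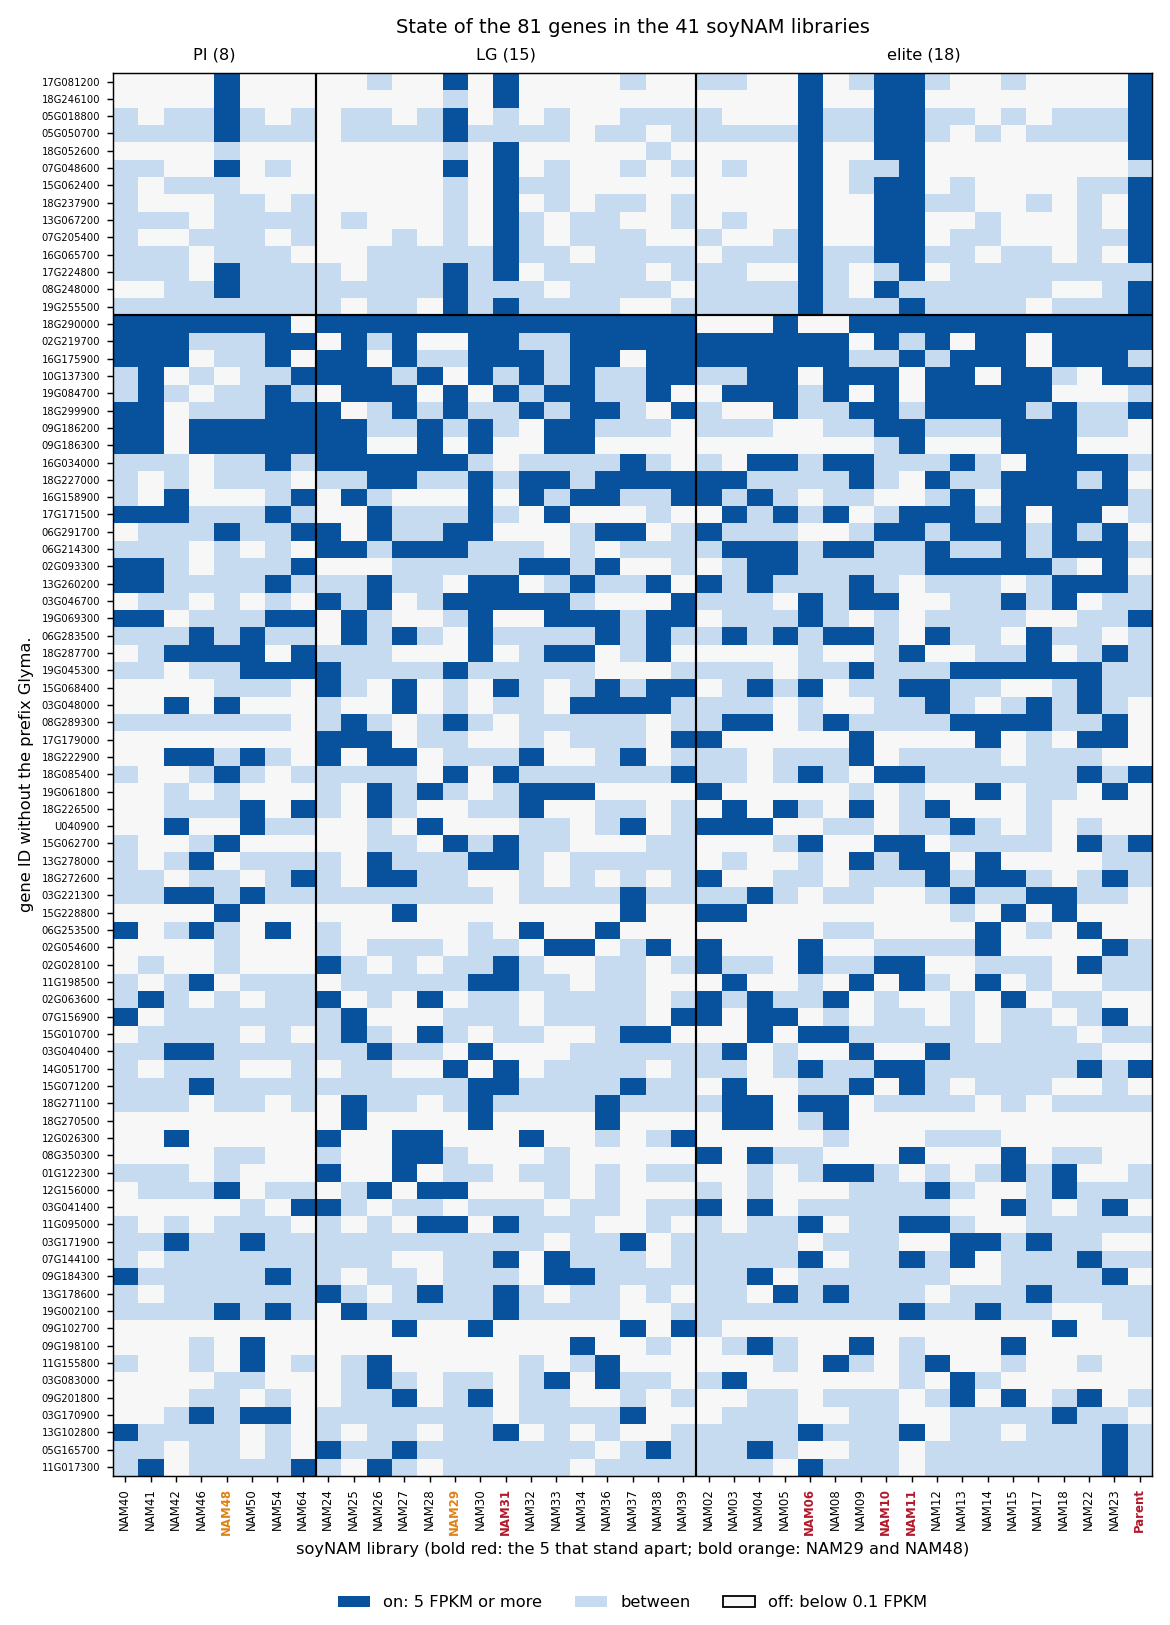
State of each of the 81 genes (rows) in each of the 41 soyNAM libraries (columns, by class), with on at 5 FPKM or more in dark blue, off below 0.1 FPKM in near white and between in light blue. The 14 genes above the horizontal line were on in no soyNAM library outside the 7 whose names are in bold, while Glyma.18G290000, directly below it, was on in 35 lines and off in 6.

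The share of members on was lowest in PI lines and highest in elite lines, as a description with no test. Of all member values, 18.1% were on in the 8 PI lines, 22.7% in the 15 LG lines and 25.5% in the 18 elite lines, while 36.1%, 35.2% and 34.5% were off in the same order of classes. A PI line had 13 to 18 members on (median 14), an LG line 13 to 30 (median 17) and an elite line 14 to 33 (median 19). A milestone library, in which the members were chosen not to switch, had 9 to 20 on (median 14). All classes overlapped between 14 and 18, and no PI line lay above that. The 3 highest counts belonged to libraries that stand apart (33 in NAM11, 30 in NAM06 and 30 in NAM31), and without the 5 the shares on were 18.1% in PI, 21.7% in LG and 23.5% in elite lines, with medians of 14, 17 and 18.5 members on. Among the 148 genes that switched in both collections the shares were 33.6% in PI, 34.3% in LG and 37.05% in elite lines.

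**Figure D2:**
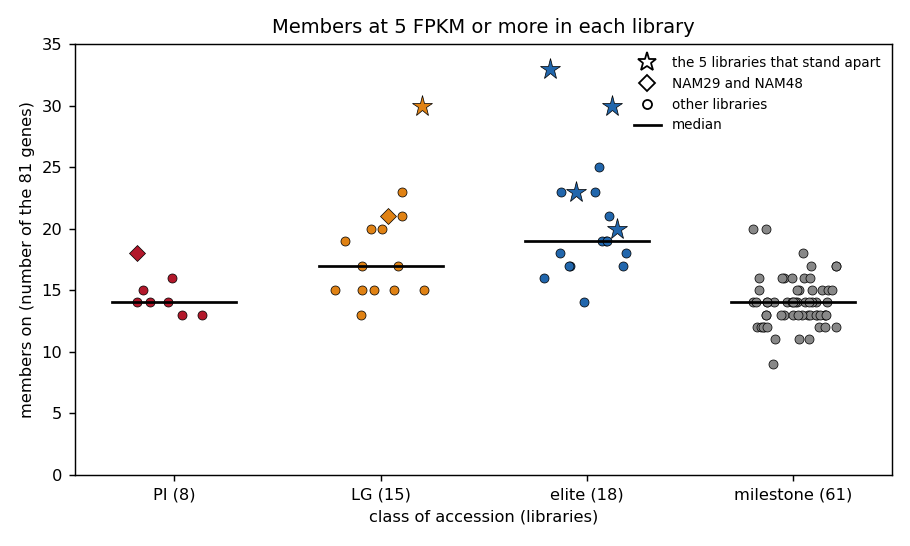
Number of the 81 genes at 5 FPKM or more in each library (vertical axis) by class of accession (horizontal axis), 1 point per library and a bar at the class median. The medians are 14 in PI, 17 in LG, 19 in elite and 14 in milestone libraries, and 3 of the 5 libraries that stand apart (stars) reach 30 or more.

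By member, 51 of the 81 were on in at least 1 line of all 3 classes. The share on was highest in PI lines for 16 members, in LG lines for 19 and in elite lines for 43. Without the 5 libraries these counts were 21, 15 and 29, and 42 members were on in all 3 classes. In 29 members no PI line was on, and all 29 were on in both of the other classes (22 of them without the 5 libraries). With 8 PI lines and a median of 6 on lines among those 29 members, such a pattern carries little information, and 7 of the 29 were on in no library outside the 7 named in the plot of states. No member lacked an on line among the 15 LG lines, and Glyma.12G026300 alone lacked one among the 18 elite lines; without the 5 libraries 8 members had no LG line on and 16 no elite line. Glyma.12G026300 was on in 1 of 8 PI lines (77.1 FPKM in NAM42) and in 5 of 15 LG lines (9.15 to 129 FPKM), while its highest elite value was 0.934 FPKM. Glyma.17G179000 was listed at 0 in all 8 PI lines, and was on in 4 of 15 LG lines and 5 of 18 elite lines, at up to 7.24 FPKM in LG and 8.50 FPKM in elite lines.

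Of the 81 members, 7 had at most 4 lines between the limits (8.64%), against 33 of the 148 genes that switched in both collections (22.3%). The commonest of the 7 was Glyma.18G290000. It was on in 7 of 8 PI lines (14.8 to 50.9 FPKM), in 15 of 15 LG lines (23.5 to 67.8 FPKM) and in 13 of 18 elite lines (17.8 to 72.6 FPKM), and listed at 0 in the 6 remaining lines, NAM64, NAM02, NAM03, NAM04, NAM06 and NAM08. No soyNAM value of this gene lay between 0 and 14.8 FPKM. In the milestone cultivars it was on in 59 libraries and listed at 0 in 2, so it missed the rule there for want of off libraries. Of the other 6, 5 were off in at least 33 of the 41 lines.

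Glyma.15G228800 was on in NAM48 (8.75 FPKM), NAM27 (8.31), NAM37 (12.3), NAM02 (10.6), NAM03 (9.60), NAM15 (16.7) and NAM18 (11.02), off in 33 lines, and listed at 0 in all 61 milestone libraries. Its on lines came from all 3 classes, with 1 of 8 PI, 2 of 15 LG and 4 of 18 elite lines. Glyma.09G102700 was on in NAM27 (8.54 FPKM), NAM30 (5.61), NAM37 (62.0), NAM39 (12.6) and NAM18 (6.71), and listed at 0 in 34 lines. It was thus on in 4 LG lines, 1 elite line and no PI line, with 1 of 61 milestone libraries on. Glyma.18G270500 was on in NAM25, NAM30, NAM36, NAM03, NAM04 and NAM08 at 5.86 to 8.52 FPKM, reached 3.16 FPKM in NAM06 and was listed at 0 in the other 34 lines, all 8 PI lines among them. Glyma.09G186300 is described next, and the remaining 2-state members, Glyma.18G052600 and Glyma.18G246100, belong to the 14 members described with the 7 libraries below.

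Glyma.09G186300, at 17 on and 23 off, had the largest smaller count of the 81 members. Its neighbour in the ID order, Glyma.09G186200, was on in nearly the same lines but less even, at 18 on and 6 off. Glyma.09G186300 was on in 7 of 8 PI lines (lowest 0.0131, median 18.1, highest 25.9 FPKM), in 6 of 15 LG lines (lowest and median listed at 0, highest 22.6 FPKM) and in 4 of 18 elite lines (lowest listed at 0, median 0.00537, highest 17.0 FPKM). Glyma.09G186200 was on in the same 17 lines and in NAM10, where it stood at 9.72 FPKM. Its on values were 53.8 to 98.6 FPKM in PI lines, 59.1 to 85.9 FPKM in LG lines and 9.72 to 77.7 FPKM in elite lines, and all its other soyNAM values were at or below 0.853 FPKM. NAM42 was the only PI line in which either gene was off, at 0.0799 FPKM for Glyma.09G186200. No soyNAM line of Glyma.09G186200 lay strictly between 0.853 and 9.72 FPKM, although 17 lines (0 PI, 7 LG and 10 elite) were above the off limit and so counted as between.

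The milestone cultivars differed from this pattern in both genes. Glyma.09G186200 was on in 61 of 61 milestone libraries at 7.59 to 43.6 FPKM (median 23.9). That range lies below every on value in soyNAM except that of NAM10 and above every other soyNAM value. Glyma.09G186300 was on in 42 milestone libraries (5.96 to 20.4 FPKM) and between the limits in 19 (0.306 to 3.17 FPKM), so it also fell into a higher and a lower set there, with the lower set above the off limit. Reads from near-identical copies can be shared between IDs, and whether quantification used the strand is not given in the sources used here; their part in these levels was not tested.

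The classes were then compared gene by gene, with limma on log2(FPKM + 1) over the 41 soyNAM libraries, for the 29152 genes whose mean reached 1 FPKM. All 81 members passed this filter. PI lines against elite lines gave 534 genes past an adjusted p of 0.05 (1.83% of the genes tested), and 1 of the 81 members was among them, Glyma.06G214300. At an unadjusted p under 0.05 the contrast held 8 members (9.88%), against 16.7% of all genes tested. The median difference was -0.30 over the members and -0.01 over all genes on the log2(FPKM + 1) scale, with 28 members higher and 53 lower in PI lines. Without the 5 libraries, through which alone 14 of the 81 members passed the filter, the median over the remaining 67 was -0.06, with 29 higher and 38 lower, and 13.4% of members were at an unadjusted p under 0.05, against 33.9% of all genes. The share of members called, 1.23%, rested on 1 gene, against 1.83% of all genes. The shares of members at an unadjusted p under 0.05 lay below those of all genes in both fits. PI and elite lines also differed in LHY2b. It ran from 46.1 to 203 FPKM in PI lines (median 152). In elite lines without the 5 libraries it ran from 189 to 326 FPKM (median 260). Class and LHY2b level thus overlap little and cannot be told apart in this contrast, and the part of LHY2b was not tested.

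Glyma.06G214300 was lower in PI lines, with 1.92 FPKM at the median (lowest listed at 0, highest 4.87), against 5.06 FPKM at the median in elite lines (lowest 3.67, highest 6.60). LG lines lay at 4.68 FPKM (lowest listed at 0, highest 6.98). It was on in 0 of 8 PI, 5 of 15 LG and 10 of 18 elite lines, and its active lines all sat close to the on limit of 5 FPKM. The difference between PI and elite lines was -1.38 (SE 0.31, 95% interval -2.003 to -0.75; limma, Benjamini-Hochberg adjusted p = 0.0156). In the milestone cultivars it was off in 25 libraries and reached at most 4.07 FPKM in the other 36, so it switched there too, below the on limit.

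The pair on chromosome 9 differed by more between PI and elite lines but missed the threshold. The difference was 3.62 for Glyma.09G186200 (SE 1.06, 95% interval 1.48 to 5.77; limma, Benjamini-Hochberg adjusted p = 0.0633) and 2.71 for Glyma.09G186300 (SE 0.78, 95% interval 1.14 to 4.27; adjusted p = 0.0564). Glyma.18G287700 was on in 5 of 8 PI lines (median 7.83 FPKM) and in 3 of 18 elite lines (median 0.0964 FPKM), a difference of 1.64 (SE 0.61; limma adjusted p = 0.149). Glyma.18G227000 was on in 0 of 8 PI lines (median 0.659 FPKM), 9 of 15 LG lines (median 7.79 FPKM) and 8 of 18 elite lines (median 4.55 FPKM). Its difference between PI and elite lines was -1.38 (SE 0.45; limma adjusted p = 0.0979). These 4 genes, named for their small adjusted p, have on values in more than 1 class, and no class was uniform in all of them.

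**Figure D3:**
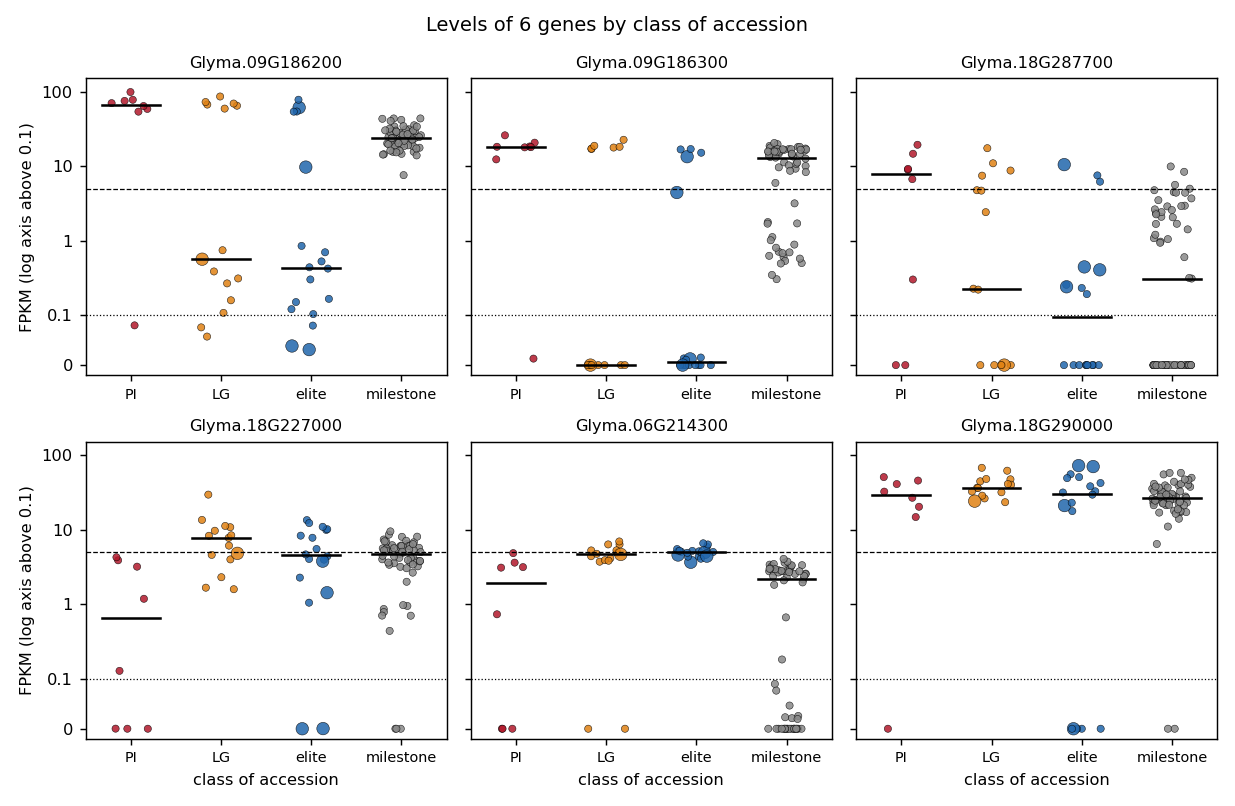
FPKM of 6 genes in every library (points; vertical axis logarithmic above 0.1 and linear below) by class of accession (horizontal axis), with bars at class medians, the on limit dashed, the off limit dotted and the 5 libraries that stand apart drawn larger. The 8 PI lines are on in 7 for the 2 genes of chromosome 9 and in 0 for Glyma.18G227000 and Glyma.06G214300. The milestone libraries of Glyma.09G186200, at 7.59 to 43.6 FPKM, lie in the upper part of the gap between the 2 soyNAM levels.

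These calls depended on which libraries were fitted. Without the 5 libraries that stand apart, 67 members passed the filter and 5 of them (7.46%) were called between PI and elite lines by limma, against 19.6% of 28473 genes tested. They were Glyma.06G214300 (-1.42, adjusted p = 0.00418), Glyma.18G227000 (-1.82, 0.00258), Glyma.09G186300 (2.86, 0.0125), Glyma.09G186200 (3.79, 0.0149) and Glyma.18G287700 (1.80, 0.0402). Leaving out 1 library at a time gave 0 to 4 called members: 0 without NAM46 or NAM50, 2 without NAM10, NAM31 or Parent, 3 without NAM42, NAM15, NAM17 or NAM18, and 4 without NAM11. The call of Glyma.06G214300 held in 39 of those 41 fits, and its adjusted p was at most 0.0523. Over all genes the share called also moved, from 1.83% with all 41 libraries to 19.6% without the 5. That share is not given here for the fits with 1 library left out. The member counts of those fits are therefore no result about the members.

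No member was called between LG and elite lines, nor between PI and LG lines. LG against elite lines gave 0 called genes of 29152 (0%) and so 0 members, by limma with Benjamini-Hochberg adjustment, with 4 members at an unadjusted p under 0.05 (4.94%, against 6.61% of all genes) and 4.48% without the 5 libraries, against 16.1% of all genes. The median 95% interval of the difference over the members was 1.71 wide from end to end on the log2(FPKM + 1) scale, so small differences were not resolved. The smallest unadjusted p belonged to Glyma.12G026300, higher in LG lines by 1.54 (SE 0.60; adjusted p = 0.636). PI against LG lines gave 1 called gene (0.00343%) and 0 members, with 8 members at an unadjusted p under 0.05 (9.88%, against 5.05% of all genes); without the 5 libraries that share was 11.9% of members, against 13.7% of all genes. The lowest adjusted p among members was 0.4998 for Glyma.18G227000, at a difference of -1.91 (SE 0.47). Without the 5 libraries 0 members were called in either contrast, against 0.931% of genes for LG against elite lines and 0.00702% for PI against LG lines.

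A block of members followed a few libraries. In 14 of the 81, every on line was among 7 libraries, the 5 that stand apart together with NAM29 and NAM48. Of the 14, 6 were on in the 5 and in no other soyNAM line: Glyma.07G205400, Glyma.13G067200, Glyma.15G062400, Glyma.16G065700, Glyma.18G052600 and Glyma.18G237900. In 21 of the 81 members (25.9%) at least 50% of the on lines were among the 5, against 5 of the 148 genes that switched in both collections (3.38%). This measure favours genes on in few lines, and the median gene was on in 7 lines among the members and in 13.5 among the 148. On in at least 3 of the 5 were 26 members (32.1%), close to the 46 of the 148 (31.1%). Without the 5 libraries 50 of the 81 members still met the rule, and without the 7, 48 did. Outside the 5, NAM48 (46.1 FPKM) and NAM29 (53.97 FPKM) had the lowest LHY2b of the soyNAM libraries. The 14 were picked for having no on line outside these 7 libraries. That the block goes with low LHY2b and low leaf markers therefore follows from the choice of libraries and genes. The part of either in the block was not tested.

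Glyma.18G052600 is the clearest of the block. It stood at 86.3 FPKM in NAM10, 66.5 in Parent, 58.4 in NAM31, 39.7 in NAM11 and 17.8 in NAM06, at 0.233 in NAM29 and 0.314 in NAM48, and at 0.149 FPKM or less in the other 34 soyNAM lines. The milestone cultivars reached 1.71 FPKM at most. Glyma.18G246100 stood at 29.4 FPKM in NAM06, 25.4 in NAM31, 20.7 in NAM10, 13.6 in NAM11 and 5.23 in Parent, and at 20.2 in NAM48 but 2.23 in NAM29. All the other 34 soyNAM lines were off, and the highest milestone value was 0.433 FPKM. Glyma.17G081200 was on in all 7 libraries at 7.99 to 17.6 FPKM, against at most 0.257 FPKM in the other 34. The 14 were picked for having no on line outside the 7, so a gene of the block that is on in all 7 cannot overlap with the other 34.

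Not all genes of the block had the same order among the 7 libraries. Glyma.07G048600, the ID next to the clock gene LHY1b (Glyma.07G048500), stood at 61.4 FPKM in NAM06, 23.7 in NAM31 and 18.2 in NAM11, at 9.99 in NAM48 and 7.86 in NAM29, but at 2.93 in NAM10 and 1.003 in Parent. It was off in 26 of the other 34 lines and at most 0.932 FPKM there. LHY1b itself stood at 46.3, 63.5 and 42.8 FPKM in NAM06, NAM31 and NAM11, and at 1.97 in NAM10 and 1.57 in Parent. In the other 34 lines LHY1b was higher still, at 74.0 to 320.5 FPKM (median 154), so over most lines the neighbours ran opposite ways. Glyma.17G224800 had the same split, with 55.6, 24.02 and 13.1 FPKM in NAM06, NAM31 and NAM11, against 0.575 in NAM10 and 0.584 in Parent. NAM10 and Parent were thus unlike the other 3 libraries in both members. In the milestone cultivars Glyma.07G048600 was off in 0 libraries and ran from 0.116 to 34.5 FPKM (median 2.35).

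**Figure D4:**
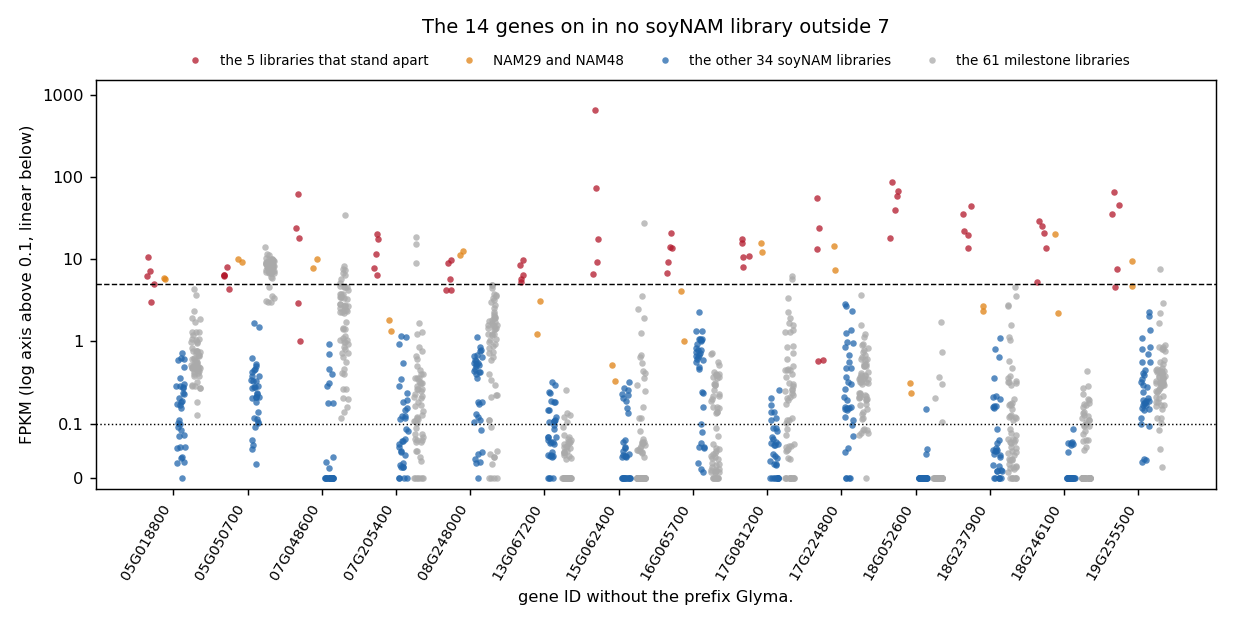
FPKM (vertical axis, logarithmic above 0.1 and linear below) of the 14 genes on in no soyNAM library outside 7, with 1 point per library in 4 sets of libraries. The dashed line is the on limit of 5 FPKM and the dotted line the off limit of 0.1 FPKM; Glyma.15G062400 reaches 656 FPKM in NAM31, and Glyma.05G050700 is the gene whose milestone libraries lie mostly above the on limit.

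Several of the highest member values belonged to the same libraries. Glyma.15G062700 stood at 1142 FPKM in NAM11, 977 in NAM31, 879.8 in NAM06, 188 in NAM10 and 132 in Parent, then at 94.3 in NAM48, 39.1 in NAM29 and 6.72 in NAM22. Its median over the 41 lines was 0.114 FPKM, so a gene nearly silent in most lines was above 100 FPKM in 5. Glyma.15G062400, 3 places away in the ID order, stood at 656 FPKM in NAM31, 73.1 in NAM11, 17.8 in Parent, 9.22 in NAM06 and 6.49 in NAM10, and at most 0.321 FPKM in the 34 lines outside the 7. On other chromosomes, Glyma.18G085400 was on in 8 of the 8 lines in which Glyma.15G062700 was on, and Glyma.14G051700 in 7 of them. Glyma.11G095000 (232 FPKM in NAM31, 114 in NAM11, 70.9 in NAM06) and Glyma.07G144100 (309 FPKM in NAM31, 251 in NAM11, 8.41 in NAM06) were also highest in libraries of the 5. Glyma.02G028100, on in 4 of the 5, reached 755 FPKM in an elite line. Not all high values lay in the 5. Glyma.06G253500 (174 FPKM) and Glyma.06G291700 (140 FPKM) were highest in PI lines. Glyma.12G026300 (129 FPKM) was highest in an LG line and off in all 5. In the milestone cultivars Glyma.15G062700 was on in 4 libraries, at up to 56.1 FPKM, 1 library short of the on count of the rule.

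Some members were silent in the 5 instead. All 5 were off in 6 members, Glyma.03G040400, Glyma.03G221300, Glyma.06G253500, Glyma.12G026300, Glyma.15G228800 and Glyma.17G179000, and at least 3 of the 5 in 20 members. Glyma.06G253500, Glyma.12G026300, Glyma.15G228800 and Glyma.17G179000 were off in 25 to 33 of the 41 lines in any case. Off in all 5 were 7.41% of the members, against 2.70% of the 148 genes that switched in both collections. Glyma.03G221300 was off in these 5 soyNAM lines and in no other, so it met the rule through them alone. Also on chromosome 3, Glyma.03G170900 was off in 4 of the 5 and Glyma.03G171900 in 3.

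Some members far from each other shared on states. Over the 3240 pairs of members, the median share of on lines held in common was 9.52% of the lines on in either, and 140 pairs (4.32%) shared at least 50%. Of those pairs, 70 were among the 91 pairs that the 14 members of the block form, and 19 were among the 2211 pairs with neither gene in the block (0.859%). The 14 were picked for having all their on lines among 7 libraries, so high sharing among their own pairs follows from that choice. Only 6 pairs lay within 10 places of each other in the ID order, with a median of 43.8% shared, and no run of 3 or more members lay that close. The pair Glyma.09G186200 and Glyma.09G186300 shared 94.4%, Glyma.18G270500 and Glyma.18G271100 shared 85.7%, and Glyma.15G062400 and Glyma.15G062700 shared 62.5%. The 3 other close pairs shared at most 25%, so closeness in the ID order did not fix a shared state.

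A trio of genes on 3 chromosomes, none of them in the block, shared many on lines. Glyma.11G198500, Glyma.13G278000 and Glyma.15G071200 were all on in NAM46, NAM30, NAM31, NAM09 and NAM11. In 2 other lines, NAM03 and NAM14, 2 of the 3 were on, and in 3 lines, NAM26, NAM37 and NAM12, only 1 was, so the pairs shared 50% to 75% of their on lines. Glyma.11G198500 stood there at 17.0, 16.3, 38.6, 18.2 and 5.54 FPKM in that order, Glyma.13G278000 at 16.8, 26.7, 40.5, 23.9 and 5.81 FPKM, and Glyma.15G071200 at 24.4, 9.71, 70.0, 19.2 and 8.45 FPKM. The medians over the 41 lines were 0.136, 0.557 and 0.324 FPKM in the same order of genes. No milestone library was on in any of the 3, with highest values of 2.95, 3.45 and 0.487 FPKM. NAM31 and NAM11 are among the 5 libraries that stand apart, and all 3 genes were highest in NAM31. The trio was picked after its values were seen, and the lines it shares come from all 3 classes.

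Failing the rule among milestone cultivars took several forms. Of the 81 members, 14 were on in most of the 61 milestone libraries, 32 were off in most, and 35 were neither, of which 31 lay between the limits in most. In 57 members the milestone libraries had enough off libraries and fewer than 5 on, in 19 they had at least 5 on and too few off, and in 5 they had too few of either. Over all 81 members, 7 had 4 milestone libraries on and 10 had 3. Too few on libraries was therefore the commonest reason for missing the rule.

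On in no milestone library at all were 28 members. In 18 of these the highest milestone value was 2.5 FPKM or more, in 3 it lay between 1 and 2.5 FPKM, and in 7 it was at most 1 FPKM. The last 7 were silent or nearly so in milestone leaves. Among them, Glyma.09G198100, Glyma.15G228800 and Glyma.U040900 were listed at 0 in all 61 milestone libraries, while their highest soyNAM values were 20.2, 16.7 and 14.6 FPKM. Glyma.09G198100 was on in NAM50 (18.4 FPKM), NAM34 (13.2), NAM04 (20.2), NAM09 (7.84) and NAM15 (9.08), and off in 31 lines. Its on lines again took in all 3 classes, with 1 PI, 1 LG and 3 elite lines.

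The 14 members on in most milestone libraries had a lower median in soyNAM than in the milestone cultivars in 12 cases. They were picked for being on in most milestone libraries, and the rule asked for at least 5 off soyNAM lines. Lower soyNAM medians therefore follow in part from that choice and are no test. The widest gap was in Glyma.03G170900, with a soyNAM median of 0.730 FPKM (highest 17.4), against a milestone median of 153 FPKM (lowest 15.6), on in 61 of 61 milestone libraries. In soyNAM it was on in NAM46 (17.4 FPKM), NAM50 (14.001), NAM54 (8.51), NAM37 (8.51) and NAM18 (13.9) and off in 12 lines. Glyma.03G171900, 10 places away in the ID order, had a soyNAM median of 0.658 FPKM (highest 68.0), against 40.3 FPKM in milestone cultivars, with 57 of 61 on. Both genes were present in the milestone cultivars at levels that few or no soyNAM lines reached, and whether growth, harvest or sequencing of the collections differed was not tested.

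**Figure D5:**
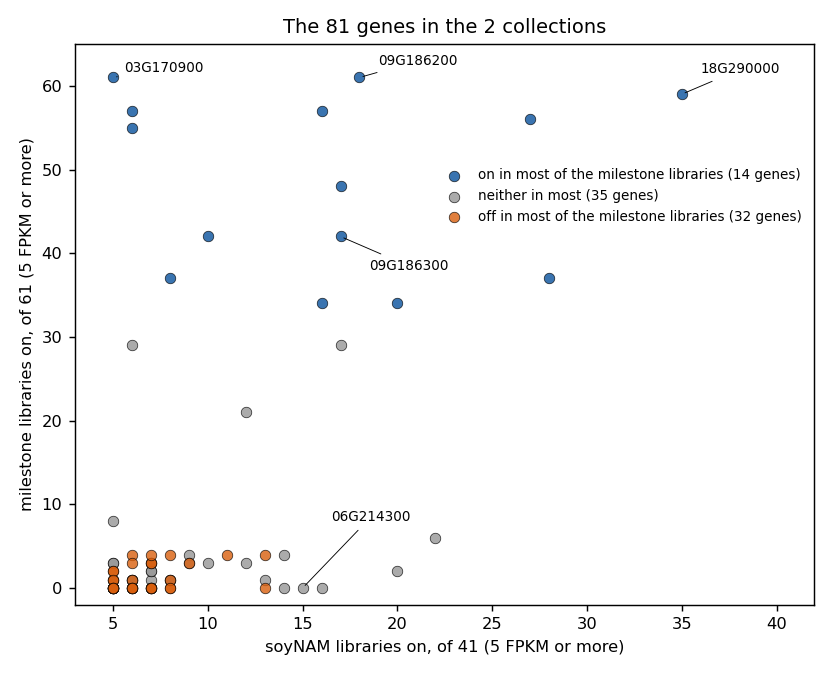
Number of soyNAM libraries on (horizontal axis, of 41) and of milestone libraries on (vertical axis, of 61) for each of the 81 genes, coloured by the state of most milestone libraries. Points in the lower left are genes on in few libraries of either collection; Glyma.03G170900 and Glyma.09G186200 lie at the top with 61 of 61 milestone libraries on.

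The on limit was passed narrowly by some members. The fifth highest soyNAM value, which the on limit reads, was 5.04 FPKM in Glyma.05G165700, 5.10 in Glyma.03G083000 and 5.15 in Glyma.13G178600. Just outside it were Glyma.06G042000 at 4.99 FPKM, Glyma.02G230800 at 4.93 and Glyma.13G332200 at 4.92. The fifth lowest value, which the off limit reads, was 0.0987 FPKM in Glyma.19G255500, 0.0964 in Glyma.13G260200 and 0.0957 in Glyma.18G299900. Just outside that limit were Glyma.06G235100 at 0.102 FPKM, Glyma.09G053700 at 0.107 and Glyma.13G098600 at 0.112. By the chromosome number in the ID, chromosome 18 held 13 of the 81 members (16.05%, against 5.39% of all IDs), and chromosomes 4 and 20 held none.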

How the data were processed

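The authors deposited FPKM values per gene for 102 leaf libraries. Per the submitters' processing notes, Trimmomatic 0.32, STAR 2.4.1c and Cufflinks 2.2.1 were used; gene IDs carry the suffix Wm82.a2.v1, per the file headers, and the genome build and use of strand are not given in the sources used here. Libraries were made with a stranded kit, per the labels' protocols. FPKM keeps no read counts, so depth is unknown and no counting interval is given. Members were found on the values as deposited, and 0 columns were left unused. Classes were compared with limma 3.58.1 in R 4.3.3 on log2(FPKM + 1), with a mean trend, 2-sided, for genes averaging 1 FPKM or more over 41 libraries, and p-values were adjusted by Benjamini-Hochberg across every gene tested; this scale understates changes of low genes. Milestone libraries stayed out, because members were chosen for not switching there. Named genes are those with the smallest adjusted p per contrast, the most even on and off counts, close neighbours and the genes nearest the limits; others were chosen after their values were seen. The members and lists were chosen with earlier results of these data known. The rule and the fit were tested on simulated data. Tables were made with Python 3.11.15 and pandas 2.3.3.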

Additional observations from a re-analysis of the deposited data

Results flagged for a closer look

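Outlying PI lines were looked for in 19 sets of 8 values, and 4 were found. Chance flags about 1 in 20 sets of normally distributed values. Most of these sets are levels of members chosen for high and near-0 values, for which that rate was not tested. Each flagged set had 1 line far from the other 7. Glyma.02G054600 stood at 0.601 FPKM in NAM48, against 0.0938 FPKM in the next highest PI line. Glyma.03G221300 stood at 12.9 FPKM in NAM42, against 6.31 FPKM in the next. Glyma.09G186200 stood at 0.0799 FPKM in NAM42, against 53.8 FPKM in the next lowest. NAM48 had 12 of the 81 members off, against 28 in the PI line with the next fewest; it is the PI line with the lowest LHY2b, and the part of that in the count was not tested.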

How the results depend on the processing

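The number of members followed the limits of the rule. It was 298 with on at 2 FPKM, 45 with on at 10 FPKM, 216 with off below 0.5 FPKM and 149 with at least 4 lines each way. Without the 5 libraries that stand apart the rule found 50 genes, and without those and NAM29 and NAM48, an alternative chosen after seeing the data, 48. Off below 0.01 FPKM gave 56, at least 6 lines gave 59, median-of-ratios scaling gave 83, and leaving out 1 library gave 67 to 81, all within 1.5 times of 81. Members called for PI against elite lines numbered 0 with a filter at a mean of 5 FPKM, which left 20 members, 4 with 4 classes over 102 libraries, 5 without the 5 libraries, 4 without the 7, and 0 to 4 with 1 library left out. Over all genes the share called for PI against elite lines was 1.83% with all 41 libraries and 19.6% without the 5. Shares for the other settings are not given here, so these member counts are no result about the members. LG against elite and PI against LG lines gave 0 members under every setting run. Among named members, 10 values passed the threshold under an alternative only and none changed sign. No paired analysis was possible because replicate numbers follow accession order and pair no lines. With 1 library per accession, 8 PI lines and unknown depth, small class differences and low levels near 0.1 FPKM are poorly resolved, and read sharing between similar copies cannot be judged from FPKM.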
